A study of Arabidopsis thaliana with 4 samples.

Results

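AT2G41190 and its relatives are transporter genes of Arabidopsis thaliana of the type called AVT1, after a vacuolar amino acid transporter of budding yeast. The family was taken as 10 loci, and the array annotation names a probe set for 5 of them: AT2G41190, AT3G54830, AT2G39130, AT5G02180 and AT5G16740. Each has 1 probe set, so the rule of keeping the brightest one left nothing out. The other 5 loci (AT5G02170, AT3G09340, AT3G09330, AT3G28960 and AT5G15240) were not analysed here. AT2G41190 heads the family because of its difference between abscisic acid (ABA) and mock, so its values are given as a description with no test. The relatives were chosen by family and not by that difference.

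Shoots of wild-type seedlings (strain Col-0) were measured on 4 arrays, 2 per treatment. The plants were 14 days old, had grown in 24 h light on upright plates with standard medium, and were submerged for 5 min in 100 uM ABA or in a mock solution, both made with MS basal salts and 0.1% Tween 20. All plants therefore had the dip and the wetting agent, and no undipped plants were measured. Shoots were taken 4 h later, apart from the roots, in pools of 20 to 24 seedlings, 1 pool per array.

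Proteins of the AVT1 type belong to the amino acid/auxin permease (AAAP) family of membrane proteins. In budding yeast, Avt1 carries neutral amino acids into the vacuole in exchange for protons, while the related Avt3, Avt4 and Avt6 carry amino acids out. The proton gradient that drives such exchange comes from the vacuolar proton pumps. In leaves the large central vacuole stores amino acids, and ABA is the hormone that builds up when plants dry. Which amino acids the Arabidopsis proteins move, and in which direction, is not part of these data.

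The values are intensities on a linear scale, as the authors deposited them. Levels differed between arrays as a whole, with ABA medians of 12.4 and 12.9 and mock medians of 16.9 and 17.0. Bacterial hybridisation spikes lay the other way, with means over 9 sets of 160 and 171 for ABA and 120 and 117 for mock. A noise level was taken for each array as the size of its 1st percentile, and the highest, 8.76, is used below. Changes are differences of log2(intensity + 16), ABA minus mock, and on this scale the median of all 19371 tested probe sets was -0.13. Among them limma called 3.97% higher and 19.6% lower at a Benjamini-Hochberg adjusted p of 0.05.

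AT2G41190 was bright after ABA and dim in mock. Its intensity was 519 and 516 after ABA against 14.4 and 18.2 in mock. The groups were far apart, and the mock arrays lay above the noise level but near it. The means were 518 ± 2.43 after ABA and 16.3 ± 2.72 in mock (SD, n = 2 arrays each), a ratio of 31.8 on the linear scale. On the log2 scale the difference was 4.05. By the size of this difference AT2G41190 held rank 8 of 19371 probe sets and rank 4 of 11371 named genes. Its rank among named genes was also 4 after quantile normalization, 6 with 64 added in place of 16, and 9 with 1 added. The size of the log2 difference depends on the constant, at 2.86 with 64 and 4.92 with 1, since the mock level is of the same order as the 16 that was added.

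**Figure D1:**
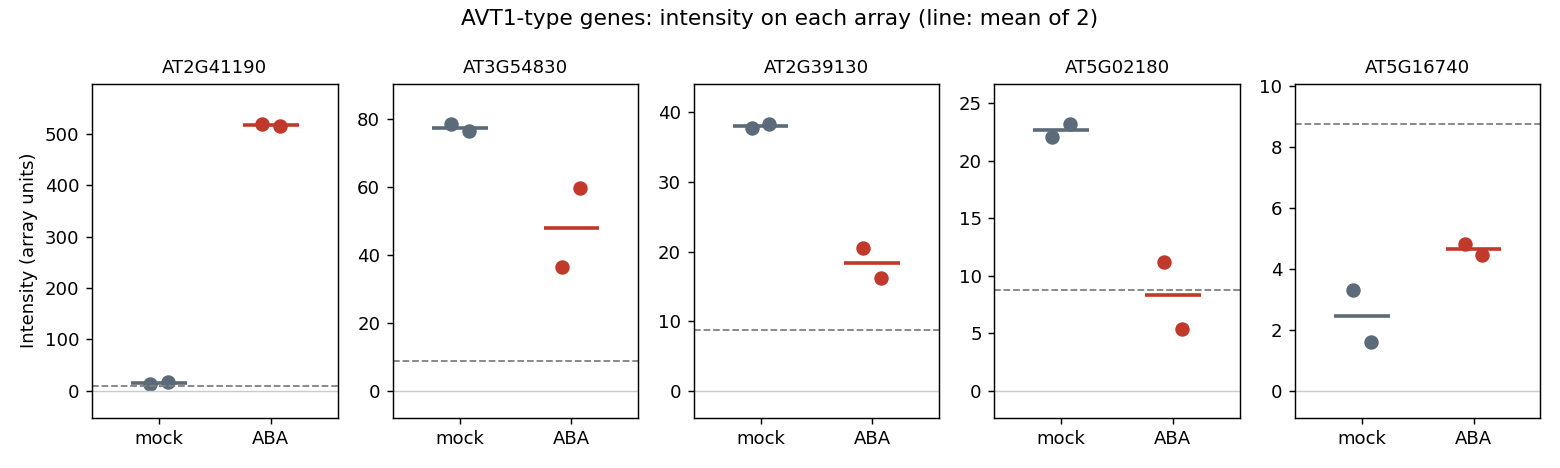
Intensity (array units) of the 5 AVT1-type genes on the 2 mock and 2 ABA arrays, each panel with its own linear axis. Points are arrays, short lines are means of 2, and the dashed line is the noise level of 8.76. AT2G41190 goes from 14.4 and 18.2 to 519 and 516, AT3G54830, AT2G39130 and AT5G02180 are lower after ABA, and AT5G16740 stays under the dashed line.

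On the deposited scale none of the relatives moved with AT2G41190 past the threshold. Of the 4, 1 fell and 0 rose in limma. An unadjusted p under 0.05 was reached by 2 of the 4, and by 7839 of all 19371 probe sets in the same fit. The median log2 difference of the relatives was -0.61, against -0.13 for all probe sets. A fall is common on these arrays (19.6% of probe sets), more so among brighter ones, so the count of 1 in 4 is not a result about the family. Because AT2G41190 was picked for its change, the contrast between it and its relatives was not tested.

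AT2G39130 was the relative that passed. It read 20.6 and 16.3 after ABA and 37.8 and 38.4 in mock, so the groups did not overlap. Its mean was 2.07 times as high in mock as after ABA (log2 difference -0.65, SE 0.080, limma Benjamini-Hochberg adjusted p = 0.0337). Probe sets of similar brightness, the fourth of 5 equal groups ranked by mean intensity, had a median log2 difference of -0.36, and 36.2% of them were called lower. Its probe set is of the kind marked as able to bind related transcripts, and whether another transcript adds to its signal was not tested. After quantile normalization its log2 difference was -0.39 and the call was lost (limma adjusted p = 0.126).

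AT3G54830 lay lower after ABA in both arrays, without passing. Its intensities were 36.3 and 59.5 after ABA and 78.5 and 76.2 in mock. The ABA arrays differed from each other by 0.53 on the log2 scale, about as much as the groups differed (-0.57, SE 0.23, limma adjusted p = 0.195). Leaving out the first ABA array brought the difference to -0.31 and leaving out the second to -0.84.

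AT5G02180 gave 11.2 and 5.41 after ABA and 22.1 and 23.2 in mock. Both mock arrays were above the noise level, but only 1 of the 2 ABA arrays was, so no linear ratio is given. The groups did not overlap, and the log2 difference of -0.68 (SE 0.15) missed the threshold (limma adjusted p = 0.0755). Probe sets of its brightness had a median of -0.24, and 19.0% of them were called lower. In the TAIR10.1 annotation AT5G02180 lies directly beside AT5G02170, another family locus. Of the 10 loci, 4 have such a neighbour within the family, the others being AT3G09330 and AT3G09340, and whether the probe set can bind the neighbour's transcript was not tested.

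AT5G16740 was under the noise level on all 4 arrays, at 4.80 and 4.47 after ABA and 3.32 and 1.62 in mock. These readings order the arrays but carry no measured level, and its log2 difference of 0.16 did not pass (limma adjusted p = 0.176).

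The number of relatives called depends on which dim probe sets enter the fit. In all, 1194 probe sets had no value above 0 and therefore no spread, which enters the variance that limma shares between probe sets. The fit was then limited to the 11622 probe sets above the 40th percentile of mean intensity over the 4 arrays. AT5G16740 did not enter it. There 3 relatives were called lower, with limma adjusted p-values of 0.00176 for AT2G39130, 0.00348 for AT5G02180 and 0.0190 for AT3G54830. AT5G02180 entered only through its mock arrays (mean 22.6), as its ABA mean of 8.30 is below the lowest mean kept, 8.36. Its p-values in the filtered fits are therefore not support for a fall. In that fit 50.0% of all probe sets were called lower, so this count too is not a result about the family. With quantile normalization and this filter together, AT2G39130 and AT5G02180 passed (limma adjusted p = 0.0350 and 0.0420) and AT3G54830 did not (0.257), while 19.8% of all probe sets were called lower.

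**Figure D2:**
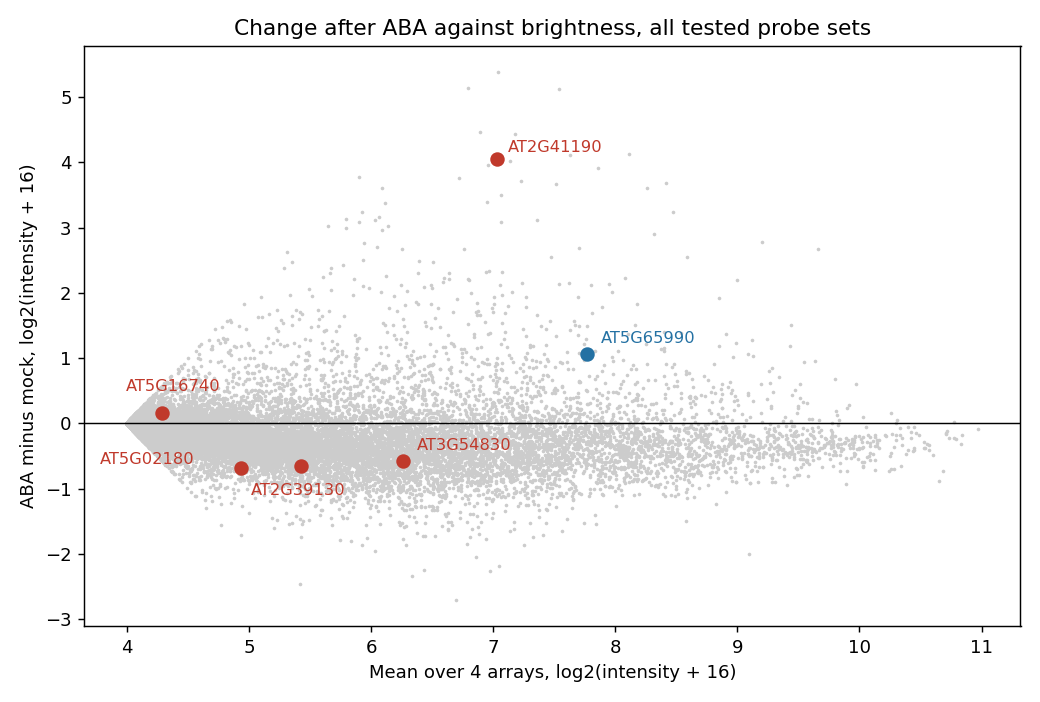
Difference between ABA and mock (vertical axis) against the mean over 4 arrays (horizontal axis), both in log2(intensity + 16), with 1 grey point per tested probe set. AVT1-type genes are red and AT5G65990 is blue. AT2G41190 stands at 4.05, while its relatives lie between -0.68 and 0.16, within the grey cloud.

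**Figure D3:**
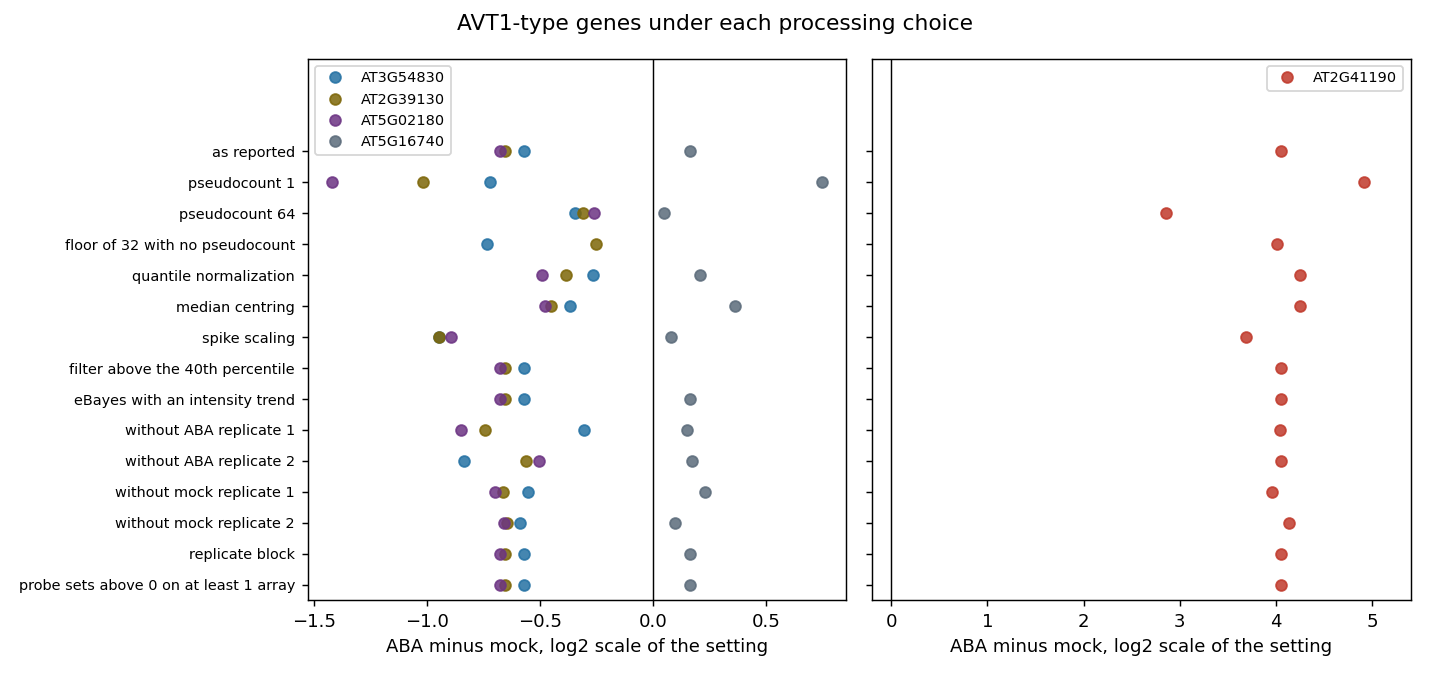
Difference between ABA and mock of the AVT1-type genes (horizontal axes, log2 scale of each setting) under each processing choice (rows). Relatives are in the left panel and AT2G41190 in the right, and a gene missing from a row did not enter that fit. AT2G41190 stays between 2.86 and 4.92, and AT3G54830, AT2G39130 and AT5G02180 are below 0 in each row.

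Next to the AVT1 type, Arabidopsis has transporters that resemble the yeast exporters, the AVT3 and AVT6 groups. Of 8 such loci 5 are named, all above the noise level on each array, and 1 rose and 1 fell. Their median log2 difference was -0.18, against -0.13 for all probe sets. By brightness they lie in groups 3 to 5 of 5, whose medians were -0.24, -0.36 and -0.33. Among all probe sets, 3.97% were called higher and 19.6% lower.

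AT5G65990, of the AVT3 group, was the one that rose. It read 290 and 309 after ABA and 141 and 128 in mock, with no overlap. This is 2.23 times the mock level (log2 difference 1.07, SE 0.065, limma adjusted p = 0.0190). Under quantile normalization, median centring and spike scaling the difference was 1.32, 1.27 and 0.63, past the threshold each time. Of all probe sets 3.97% were called higher.

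AT4G38250, also of the AVT3 group, fell. It went from 197 and 206 in mock to 143 and 157 after ABA (log2 difference -0.39, SE 0.059, limma adjusted p = 0.0434). The median of the brightest group of probe sets, which holds it, was -0.33, and after quantile normalization it was at -0.16 without passing (limma adjusted p = 0.232).

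The AVT6 group gave no call. AT3G30390 read 181 and 235 after ABA and 245 and 270 in mock (log2 difference -0.30, limma adjusted p = 0.301), AT1G80510 had a log2 difference of -0.18 and AT5G38820 one of -0.027. AT3G30390 has 2 further probe sets, both of kinds that can bind related transcripts. One of these was called lower, with 13.6 and 18.5 after ABA against 51.3 and 45.6 in mock (log2 difference -1.01, limma adjusted p = 0.0306), and the other was below the noise level. The probe sets of AT3G30390 thus disagree in size.

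Of 28 loci of the other AAAP branches 6 are named. These branches hold the AAP, LHT, proline and auxin carriers of the plasma membrane and related genes. Of the 6, 0 rose and 1 fell, while 3.97% of all probe sets were called higher and 19.6% lower. The one that fell, AT1G47670 of the LHT group (named after lysine and histidine transport), went from 60.2 and 57.4 in mock to 20.7 and 22.3 after ABA. Its level was 2.74 times as high in mock (log2 difference -0.997, SE 0.039, limma adjusted p = 0.0169), and it passed after quantile normalization too (-0.71, limma adjusted p = 0.0266). AT1G25530, of the same group, read 39.5 and 50.4 after ABA and 31.6 and 26.9 in mock, without passing (log2 difference 0.43, limma adjusted p = 0.126). The other 4, AT1G61270, AT1G67640, AT1G71680 and AT5G41800, were under the noise level on at least 3 arrays. Taken over the 3 transporter lists, 16 of 46 loci were named, 10 of them above the noise level on every array. Of 9 cationic amino acid transporter loci 0 were named.

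**Figure D4:**
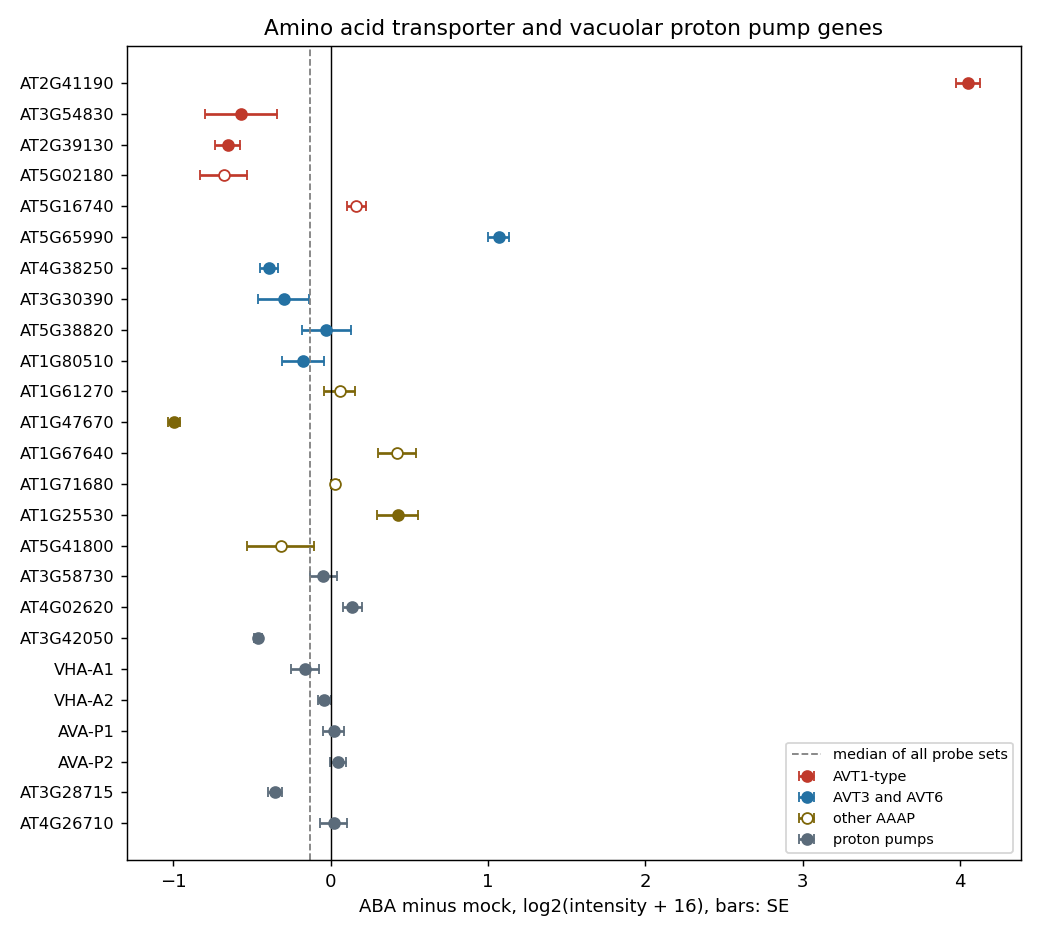
Difference between ABA and mock in log2(intensity + 16), with SE bars from limma, for the named amino acid transporter and vacuolar proton pump genes. Open circles mark genes under the noise level on at least 1 array, and the dashed line is the median of all probe sets, -0.13. AT2G41190 at 4.05 and AT5G65990 at 1.07 lie to the right, and AT1G47670 lies furthest to the left at -0.997.

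The vacuolar proton pumps supply the gradient that AVT-type exchangers use. Of 30 pump loci 9 are named, all subunits of the vacuolar proton ATPase and all above the noise level on each array. Here 0 rose, 2 fell and 7 did not pass. Their median log2 difference was -0.041, against -0.36 and -0.33 for brightness groups 4 and 5 of all probe sets, which hold them. AT3G42050 went from 319 and 326 in mock to 227 and 232 after ABA (log2 difference -0.46, SE 0.025, limma adjusted p = 0.0179), and AT3G28715 from 285 and 306 to 230 and 225 (-0.36, SE 0.046, limma adjusted p = 0.0359). Both were in the brightest group of probe sets, of which 36.3% were called lower, and both calls were lost after quantile normalization (limma adjusted p = 0.0557 and 0.207). The membrane subunit genes VHA-A1 and VHA-A2 had log2 differences of -0.17 and -0.041, and the proteolipid genes AVA-P1 and AVA-P2 0.019 and 0.045. No tonoplast aquaporin was named among 10 loci.

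Amino acids also reach the vacuole through autophagy, the delivery of cell contents for breakdown, in which ATG8 proteins sit in the membrane of the forming vesicle. All 9 ATG8 genes are named, and 3 rose, 1 fell and 5 did not pass. The median was 0.022, against -0.13 for all probe sets, of which 3.97% were called higher and 19.6% lower. All but ATG8F lie in brightness groups 4 and 5, whose medians were -0.36 and -0.33.

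ATG8H showed the largest rise of the 9. It read 64.5 and 60.2 after ABA and 26.2 and 17.4 in mock (2.86 times, log2 difference 1.06, SE 0.15, limma adjusted p = 0.0398). ATG8E followed, with 89.9 and 77.3 after ABA and 40.1 and 41.6 in mock (2.05 times, 0.81, SE 0.081, limma adjusted p = 0.0276). APG8A, also called ATG8A, read 76.1 and 76.2 after ABA and 55.0 and 48.5 in mock (log2 difference 0.44, limma adjusted p = 0.0394). In each of these genes both ABA arrays lay above both mock arrays, which with 2 arrays per group adds nothing to the calls.

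ATG8D fell, from 156 and 151 in mock to 125 and 117 after ABA (log2 difference -0.30, limma adjusted p = 0.0418), close to the median of -0.33 for its brightness. ATG8B, ATG8C, ATG8G and APG8H (also ATG8I) had differences between -0.052 and 0.15 and groups that overlapped, and ATG8F was below 0 on each array. The probe set used for ATG8B is of a kind that can bind related transcripts. The other probe set of ATG8B was above the noise level on 1 array only. It read 6.63 and 6.59 after ABA and 7.26 and 10.4 in mock (log2 difference -0.13, limma adjusted p = 0.351). All 3 rises passed after quantile normalization (limma adjusted p = 0.0439 for ATG8H, 0.0338 for ATG8E and 0.0349 for APG8A), while under spike scaling none passed (0.0517, 0.0758 and 0.494).

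**Figure D5:**
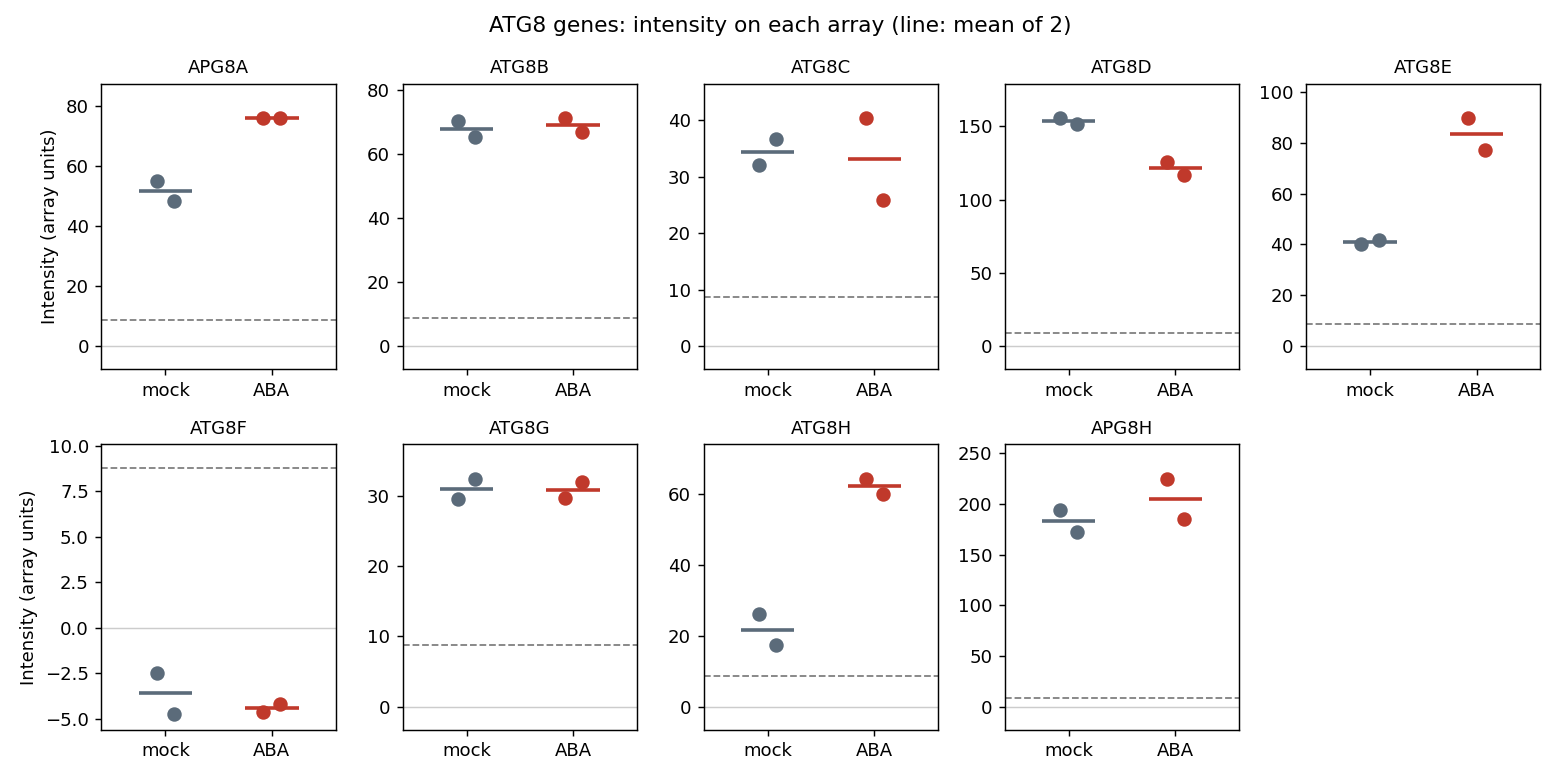
Intensity (array units) of the 9 ATG8 genes on the 2 mock and 2 ABA arrays, each panel with its own linear axis. Points are arrays, short lines are means of 2 and the dashed line is the noise level of 8.76. ATG8H, ATG8E and APG8A are higher on both ABA arrays, and ATG8D is lower.

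Proline is the amino acid best known to build up in drying plants. Of 6 loci for its synthesis and breakdown only AT5G38710, a proline dehydrogenase gene, is named. It was under the noise level on all arrays, at 2.91 and 8.42 after ABA and 7.16 and 8.33 in mock (log2 difference -0.14, limma adjusted p = 0.598).

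The genes most like AT2G41190 in pattern were sought among the other 11366 named genes, by the root-mean-square difference of log2(intensity + 16) over the 4 arrays after each gene was centred on its own mean. The nearest 5 were AT2G47780 (0.18), a small rubber particle protein gene, KIN1 (0.18), a cold- and ABA-induced gene, AT3G17520 (0.18), of the late embryogenesis abundant proteins, AT1G16850 (0.22), and SAG29 (0.22), a senescence-associated sugar transporter. The median distance over all these genes was 2.08, and 33 genes lay within 1. With 4 arrays this measure reflects little besides the difference between the groups, and so it is a description.

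KIN1 was most often among the nearest. It read 531 and 524 after ABA and 25.8 and 24.8 in mock, and was one of the 5 under all 6 other constants and scalings. AT1G16850 and SAG29 were so under 5 of 6, AT2G47780 under 4 and AT3G17520 under 2. The mock readings of AT3G17520, 0.390 and -0.103, were below the noise level, so its distance depends on the constant added. AT1G16850 read 8.45 and 9.88 in mock, the first of these also under the noise level.

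Tissue markers were read beside these results. Of the leaf markers, RCA (Rubisco activase), LHCB4.1 and LHCB4.2 are named of 7, and all 3 fell, with summed intensities of 3367 to 3520 after ABA and 4793 to 5107 in mock. All of them are in the brightest group of probe sets, with its median of -0.33 and 36.3% called lower. The probe sets used for these 3 are of kinds that can bind related transcripts, and whether others add to their signal was not tested. After quantile normalization RCA passed (-0.52, limma adjusted p = 0.0311), but LHCB4.1 (-0.055, 0.529) and LHCB4.2 (-0.11, 0.296) did not. On the second probe sets of these LHCB4 genes, which are not of those kinds, the calls were also lost (limma adjusted p = 0.0961 and 0.135). Their log2 differences were much as on the first, at -0.38 (SE 0.097) and -0.40 (SE 0.13). A further RCA probe set, also not of those kinds, lost the call too (-0.55, limma adjusted p = 0.117). Another, of a kind that can bind related transcripts, kept it (-0.88, limma adjusted p = 0.0184). Of 9 root markers 5 are named, and 4 of these, EXPA7, AT1G30870, AT3G01190 and AT5G17820, were under the noise level on each array. Of these dim ones limma called EXPA7 higher (log2 difference 0.12, adjusted p = 0.0491) and AT1G30870 lower (-0.30, adjusted p = 0.0391), at readings that carry no measured level. Among all probe sets 3.97% were called higher and 19.6% lower. The remaining root marker, PYK10, which encodes a beta-glucosidase abundant in roots, read 104 and 120 after ABA and 321 and 280 in mock (log2 difference -1.30, limma adjusted p = 0.0236). PYK10 is also in the brightest group, and after quantile normalization it passed narrowly (-1.05, limma adjusted p = 0.0465). The summed root markers, nearly all of it PYK10, lay at 100.5 to 118 after ABA and 289 to 327 in mock. Of 6 guard cell and stomatal genes 2 are named, and neither passed (FMA, also FAMA, at -0.50 and MUTE at -0.23). Their sums were 24.8 to 25.7 after ABA and 41.7 to 47.7 in mock, mostly FMA, as MUTE was under the noise level on each array. FMA lies in brightness group 4, with a median of -0.36 and 36.2% called lower. What part these markers have in the falls of AVT1 relatives was not tested. In whole shoots, fewer cells of a type and less RNA per cell cannot be told apart.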

How the data were processed

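Total RNA from shoots was amplified, labelled with biotin and hybridised to a 1-colour array, per the labels. The file holds linear intensities that the authors processed and deposited. The software, background correction, probe summary and array scaling were not given in the sources used here. Detection calls and scan dates were not used here. With arrays there is no sequencing depth to state, and precision is limited by having 2 per group.

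Of 19658 probe sets, 287 controls were left out. Names came from the array annotation, updated through TAIR10.1 gene identifiers: 11598 probe sets have 1 gene, 0 have several, and 7773 are unnamed here. They name 11371 genes, each read from its brightest probe set. No coordinates are printed, as the labels name no genome build for the array. Intensities below 0 were set to 0 and 16 was added before log2. The treatments were compared with limma 3.58.1 under R 4.3.3 (lmFit, then eBayes, two-sided, scaling as deposited, Benjamini-Hochberg over 19371 probe sets, threshold 0.05). Before that, the fit was tried on simulated data in which every probe set had spread. That trial does not cover the probe sets with no value above 0. The labels call the 2 arrays of a group biological replicates.

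The members and lists were chosen with earlier results of these data known. Loci were put in the lists from general knowledge of the families, not from the array annotation. Genes named in the text are all AVT1 members, from each other list up to 3 past the threshold by size of change (where none passed, 2), and the 5 nearest to AT2G41190. Other list members were added after their values were seen. Alternatives covered constants, floor, scaling, filter, intensity trend, replicate block and each array left out.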

Additional observations from a re-analysis of the deposited data

How the results depend on the processing

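AT2G41190 kept its direction under every alternative run, with log2 differences of 4.92 and 2.86 for added constants of 1 and 64, 4.25 after quantile normalization or median centring, 3.69 under spike scaling, and 3.96 to 4.14 with 1 array left out. Its other alternatives moved it by less than the spread between replicates.

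Counts of calls moved more. Among all probe sets 769 were higher and 3805 lower. Median centring gave 1878 higher and 2424 lower, quantile normalization 1011 lower, spike scaling 8085 lower, the filter above the 40th percentile 5809 lower, and quantile normalization with the filter 1715 higher and 2304 lower. Under quantile normalization without the filter 892 were higher. Lower calls were 83.2% of all calls as deposited, 93.9% with spike scaling, 56.3% with median centring and 53.1% with quantile normalization.

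Of the 4 AVT1 relatives, 1 was lower as reported and 0 after quantile normalization, against 3805 and 1011 of all 19371 probe sets. Under spike scaling 3 were lower, against 8085 of 19371. With the filter, whose fits AT5G16740 did not enter, 3 were lower, against 5809 of 11622. With the filter and quantile normalization 2 were lower, against 2304 of 11622. When probe sets at or below 0 on every array were left out, 2 were lower, as were 5461 of all 18177 probe sets then fitted. AT5G16740, under the noise level, was the 1 called higher after median centring. Of the 30 genes in the other lists, leaving out markers, 4 were higher and 5 lower, against 769 and 3805 of all 19371 probe sets. With 1 added, 2 were higher and 2 lower, against 687 and 2986 of all 19371 probe sets. Quantile normalization and median centring left 1 lower each, against 1011 and 2424 of all probe sets. Spike scaling gave 1 higher and 11 lower, against 525 and 8085. The filter with quantile normalization gave 7 higher and 1 lower, against 1715 and 2304 of 11622. AT1G61270, AT1G67640, AT1G71680, AT5G41800, AT5G38710 and ATG8F did not enter the filtered fits. AT5G38710 changed sign, to 0.057 with median centring, and ran from -0.33 to 0.041 with 1 array left out.

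Leaving out any 1 array ended all calls in limma (0 higher and 0 lower, with 5780 to 6459 probe sets at an unadjusted p under 0.05). With the filter as well, the same fits called 847 to 974 higher and 4165 to 4995 lower, 2 to 3 relatives lower, and 3 to 5 genes of the other lists higher and 2 to 4 lower. AT2G39130, AT5G02180, AT5G65990, AT1G47670, ATG8H and ATG8E then passed without any 1 array (highest limma adjusted p = 0.0188). Deviations of same-numbered arrays correlated at 0.039, which cannot show whether same-numbered arrays were processed together. With the replicate block 0 probe sets were called, with 7115 at an unadjusted p under 0.05, so 0 relatives and 0 genes of the other lists passed. With the replicate block and the filter, 1066 were higher and 5648 lower, and 3 relatives were lower. The filtered repeats, and the fit without probe sets at or below 0, were chosen after seeing the data. Signal over background limits AT5G02180 and AT5G16740. AT5G02180 entered each filtered fit only through its mock arrays, as its ABA mean lay below the cut, so its passes there are not support.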
